A study of Homo sapiens with 26 samples.

Results

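The 250 windows described here are the 1 Mb stretches of the human autosomes that held the fewest FOXA1 peaks when the protein was expressed in fibroblasts. Chromosomes 1 to 22 were divided from position 0 into windows of 1 Mb, windows in which at least 10% of the bases are unknown in the hg19 build were set aside, and the midpoints of the FOXA1 peaks in each remaining window were counted. The 250 windows with the lowest count were taken, with ties settled by chromosome number and then by start. They are 250 of 2619 windows counted (9.55%); another 256 of the 2875 full windows were set aside for unknown bases. Because the FOXA1 count chose the windows, that count and anything measured against FOXA1 peaks inside them is given as a description only, and every other measure is read beside all 2619 windows.

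Binding was mapped by chromatin immunoprecipitation with sequencing (ChIP-seq), which recovers the DNA that a protein sits on, in BJ, an established fibroblast line from human foreskin. All 5 constructs used here carried a HALO protein tag, were expressed ectopically for 48 hours and were recovered with an antibody against the tag from formaldehyde-fixed, sonicated chromatin. They were FOXA1, 3 FOXA1 variants that the labels call FOXA1dbd, FOXA1nhaa and FOXA1rraa, and HNF4A. The labels list 26 samples, with 2 ChIP and 2 input libraries per construct; the remaining 6 samples concern HALO-tagged H2B and were not analysed here. A single deposited peak list represents each construct, so no replicate error exists, no test between constructs was made, and the intervals below are 95% Wilson intervals that cover counting error only. The lists hold no expression values, so the labelled cell type was not checked against marker genes. Their read depth is unknown, and a window without a peak is a window without a listed peak.

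FOXA1 belongs to the forkhead family, whose DNA-binding domain has a winged-helix fold and recognises a short AT-rich core. It is best known from endoderm, liver, breast and prostate, where it is described as a pioneer factor, a protein able to engage its sites in compacted chromatin before other factors do. HNF4A is a nuclear receptor of liver, gut and kidney that binds direct repeats of a different sequence. Large gene-poor, AT-rich stretches of human chromosomes often lie at the nuclear lamina, replicate late and are packed as heterochromatin in fibroblasts.

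The sequences printed first show what kinds of site the sparse windows held. Capitals mark the forkhead core, searched as TATTTAC or TGTTTAC and, for the other strand, as GTAAATA or GTAAACA. All are the plus strand of the GRCh37 (hg19) primary assembly, 5′ to 3′. Of all consecutive 200-base stretches in the 2619 windows, 7.31% held at least 1 core, and the share in the sparse windows was 9.06%.

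The first sequence is the whole 232 bp of the highest-scoring FOXA1 peak in any sparse window, with a score of 248 that a peak on chromosome 11 shared. It lies at chr10:55361028-55361259, outside every annotated gene and 828600 bp from the nearest protein-coding start, that of the mannose-binding lectin gene MBL2. It holds a single core near its 5′ end, and FOXA1dbd and FOXA1nhaa peaks overlapped it.
FOXA1 peak chr10: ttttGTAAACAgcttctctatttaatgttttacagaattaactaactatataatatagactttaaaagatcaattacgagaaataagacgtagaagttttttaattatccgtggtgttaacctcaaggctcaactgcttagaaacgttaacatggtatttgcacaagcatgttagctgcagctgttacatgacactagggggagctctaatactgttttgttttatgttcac

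The second is the central 200 bases (chr9:23018252-23018451) of the highest-scoring FOXA1 peak with a core in that central part. Its score was 168 and it lies in the body of a lncRNA gene, outside exons and 571529 bp from the start of DMRTA1. The FOXA1rraa list held a row with the same start, end and score, so that overlap is not a separate observation.
FOXA1 peak chr9: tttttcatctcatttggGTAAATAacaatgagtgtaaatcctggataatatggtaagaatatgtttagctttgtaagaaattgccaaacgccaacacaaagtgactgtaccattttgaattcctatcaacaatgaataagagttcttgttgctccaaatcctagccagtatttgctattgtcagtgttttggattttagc

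The third, chosen after its values were seen, comes from FOXA1dbd. The highest-scoring FOXA1dbd peak that shared no base with a FOXA1 peak (score 179, fold enrichment 9.79) lies on chromosome 11 in a window with 0 FOXA1 peaks, outside annotated genes and 160342 bp from the start of CNTN5, a contactin. Its central 200 bases, chr11:98731237-98731436, hold the core 4 times in a repeated unit. Only 483 of the 13073450 consecutive 200-base stretches of all windows held 4 or more cores.
FOXA1dbd peak chr11, outside FOXA1: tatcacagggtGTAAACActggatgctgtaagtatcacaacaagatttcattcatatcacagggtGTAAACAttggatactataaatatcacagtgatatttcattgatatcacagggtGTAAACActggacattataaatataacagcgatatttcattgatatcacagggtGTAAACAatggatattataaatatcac

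The next is the centre, chr2:2275307-2275506, of the highest-scoring HNF4A peak (score 247, fold enrichment 10.3). It lies in an intron of MYT1L, a zinc finger gene of neurons, 60029 bp from that gene's start, and holds no forkhead core. The last was chosen after its values were seen. It is the 200-base stretch with the most forkhead cores among the sparse windows that had no peak in any of the 5 lists, chr15:27553723-27553922, in an intron of GABRG3, a GABA-A receptor subunit gene, with 9 cores.
HNF4A peak chr2: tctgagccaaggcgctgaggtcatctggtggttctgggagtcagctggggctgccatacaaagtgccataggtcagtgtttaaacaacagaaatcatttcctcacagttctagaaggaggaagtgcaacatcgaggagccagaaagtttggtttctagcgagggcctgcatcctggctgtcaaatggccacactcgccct
Core array without a listed peak chr15: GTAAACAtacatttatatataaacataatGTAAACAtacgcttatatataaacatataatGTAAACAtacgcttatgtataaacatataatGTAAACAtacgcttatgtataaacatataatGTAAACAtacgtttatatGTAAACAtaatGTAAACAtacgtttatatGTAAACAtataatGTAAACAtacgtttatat

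The FOXA1 counts that defined the set ran from 0 to 3 per window. No FOXA1 peak fell in 176 of the 250 windows (70.4%), which are 6.72% of all windows; 46 windows held 1 peak, 19 held 2 and 9 held 3. Over all 2619 windows the median was 54 FOXA1 peaks, with the middle 50% between 23 and 88 and a maximum of 299. Together the 250 windows held 111 of 151406 FOXA1 peaks. The 176 windows at 0 exceeded every other single count, and each count from 4 to 10 was held by 18 to 23 windows. The boundary fell inside a tie: 25 windows had 3 peaks and 9 of them entered. The last 3 to enter, chr4:60000001-61000000, chr4:96000001-97000000 with UNC5C (a netrin receptor gene) and PDHA2, and chr4:98000001-99000000, held 3 FOXA1 peaks each. The first 3 left out, chr5:11000001-12000000 with CTNND2, chr5:18000001-19000000 and chr5:166000001-167000000 with TENM2, also held 3 each.

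**Figure D1:**
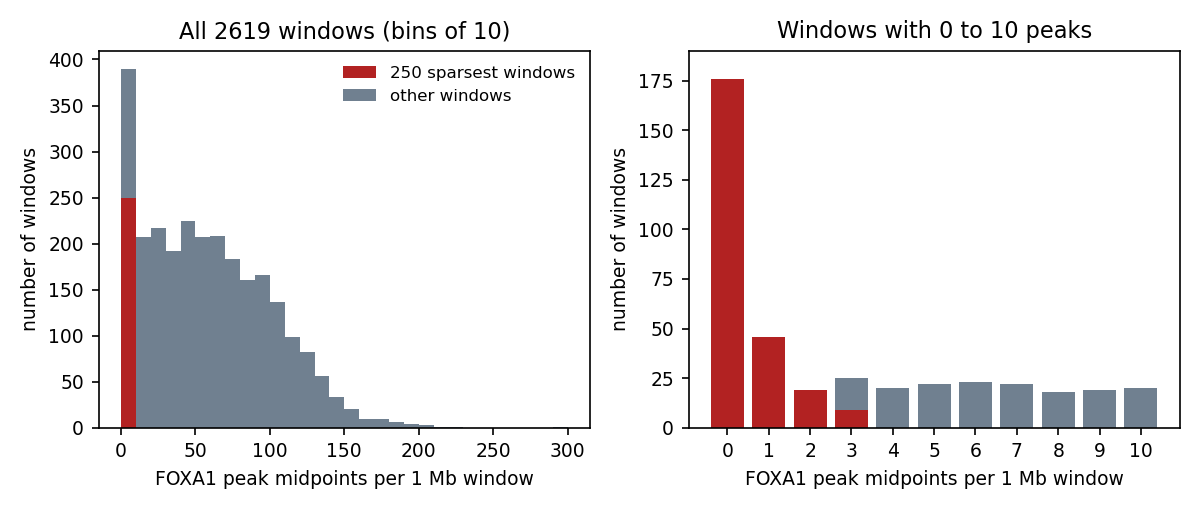
Number of 1 Mb windows (vertical axes) by number of FOXA1 peak midpoints (horizontal axes), for all 2619 windows in bins of 10 and for windows with 0 to 10 peaks; red marks the 250 sparsest windows and grey the others. The 176 windows at 0 stand above each of the counts from 1 to 10, which 18 to 46 windows share.

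The sparse windows were rich in forkhead cores. They held a mean of 498 ± 82.4 cores (SD over 250 windows), against 399 ± 103 over all windows, which is 1.25 times the general mean (1.24 to 1.25). A count above the median of all windows was found in 213 of 250 (85.2%), where 49.4% of all windows passed. When all windows were ordered by core number and cut into 5 groups of equal size, the group with the most cores (492 to 664) included 164 sparse windows, 31.3% of that group, and the group with the fewest included 9. The next-highest group by core number included 43 sparse windows and had a median of 74 FOXA1 peaks over all its windows, against 25 in the highest group. Per FOXA1 peak the sparse windows held 1121 cores and all windows 6.90. The FOXA1 count that chose the windows is the divisor here, so the rule largely sets this contrast. The sparse window richest in cores, chr13:69000001-70000000, held 664 of them, no protein-coding start, 0 FOXA1 peaks, 1 FOXA1dbd peak and 2 FOXA1nhaa peaks. With TGTTTAC alone the excess was 1.17 times. The core of HNF4A, searched as CAAAGTCCA on both strands, stood at 0.924 times the general mean (0.893 to 0.955).

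**Figure D2:**
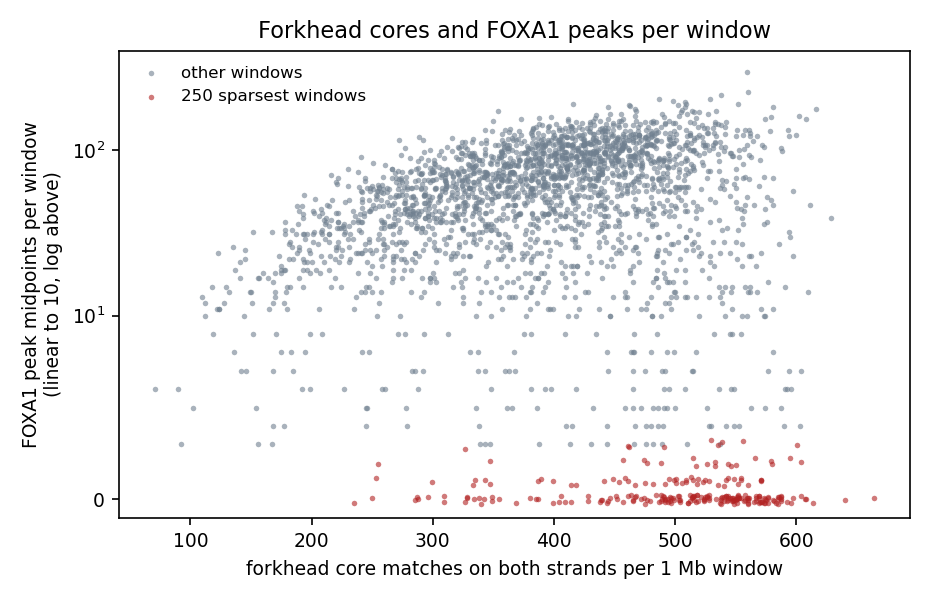
Each point is a 1 Mb window, with its forkhead core matches on both strands (horizontal axis) and its FOXA1 peak midpoints (vertical axis, linear to 10 and logarithmic above); points of the 250 sparsest windows, in red, are shifted by up to 0.25 vertically so that they can be told apart. Most red points lie at the right, at 465 to 553 cores for the middle 50%, below grey points with the same core number and many FOXA1 peaks.

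Base composition moved with the core number. Median GC content was 35.8% in the sparse windows, with the middle 50% between 34.9% and 37.7%, and 40.2% in all windows. CpG dinucleotides had a median of 5.99 per kb against 8.55. Of the 5 groups of windows made in the same way by GC content, the lowest held 172 of the 250 sparse windows. The part of base composition in the excess of cores was not tested. Sequence in these windows was mostly unique: the median share of 32-base words that occur once in the genome was 90.6%, against 88.5% in all windows. Under 50% unique words were found in 7 sparse windows, on chromosomes 5, 9, 14 and 16, which are 21.2% of the 33 such windows in all. Within 2 Mb of a gap of at least 1 Mb of unknown bases lay 15 sparse windows (6.0%), against 2.56% of all windows.

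Protein-coding genes started rarely in the sparse windows. They held 269 of 18708 protein-coding starts, a mean of 1.08 per window against 7.14, or 0.151 times the general mean (0.134 to 0.170). No protein-coding start lay in 135 of them (54.0%), against 12.6% of all windows, and the median share of bases inside a protein-coding gene was 6.98% against 50.4%. Starts of lncRNA genes were less reduced, at 0.550 times the general mean. An absence of genes did not by itself mark a window as sparse: 331 windows had no protein-coding start, 135 of them were sparse, and the remaining ones had a median of 30 FOXA1 peaks. At the other end, 4 sparse windows had 10 or more protein-coding starts. The one with the most, chr1:248000001-249000000, held 36, most of them olfactory receptors (among the first 6 by position OR11L1, OR2W3, OR2T8, OR2AJ1 and OR2L8, with TRIM58), and 1 FOXA1 peak; 68.2% of its sampled words were unique. When windows were held to at least 90% unique words the ratio for protein-coding starts was 0.460, and with the 500 sparsest windows it was 0.585.

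Gene families were counted by where their starts lay, and 1.44% of all protein-coding genes lay in the sparse windows. Olfactory receptor genes, which act mainly in the olfactory epithelium, contributed 62 of 392 in 4 windows. Cadherins, contactins and contactin-associated proteins, adhesion proteins of neurons and epithelia, were counted as 1 list. They contributed 12 of 33, each in a window of its own, among them CDH12, CDH10, CDH9, CNTN5 and CNTNAP2. UDP-glucuronosyltransferases, liver and olfactory conjugating enzymes, contributed 5 of 22, all in chr4:70000001-71000000, and keratin-associated proteins of hair 9 of 94 in 1 window. Genes named ZNF, which encode zinc finger proteins, contributed 11 of 472. None of 20 listed fibroblast genes, 23 listed liver genes (a list without the 5 UDP-glucuronosyltransferases above) or 12 AP-1 subunit genes lay there. Nor did any of 64 replication-dependent histone genes, 69 cytosolic ribosomal protein genes or 19 HLA genes. The same was true of 53 clustered protocadherin genes, 36 beta-defensin genes and 22 bitter taste receptor genes. At the general share of 1.44%, a count of 0 does not set lists of these lengths apart. The collagen list contributed 1 of 40, COL22A1, the forkhead genes 2 of 46, FOXD4L2 and FOXD4L6, and the segmentally duplicated families 4 of 92.

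Long genes were common among the few present. Of 308 protein-coding genes over 500 kb long, 41 (13.3%) started in a sparse window. The 5 longest were CNTNAP2 (a contactin-associated protein gene of 2305 kb), PTPRD (a receptor tyrosine phosphatase gene of 2299 kb), CSMD1 (2060 kb), EYS (a photoreceptor gene of 1987 kb) and PCDH15 (an inner-ear protocadherin gene of 1825 kb). CNTNAP2 held 1 FOXA1 peak in its whole body, PTPRD 1, CSMD1 0 and PCDH15 0. EYS was the exception among them with 20 FOXA1 peaks. Over the bodies of the 41 genes FOXA1 peaks stood at 1.42 per Mb, against 61.2 per Mb in the other 267 long genes, a contrast that the choice of windows sets in part. FOXA1nhaa stood at 2.68 against 44.5 per Mb, FOXA1dbd at 1.10 against 10.9 and HNF4A at 0.206 against 6.74. Of the 41, 28 held no FOXA1 peak, 14 no FOXA1dbd peak, 8 no FOXA1nhaa peak and 35 no HNF4A peak; of the other 267, the numbers were 13, 22, 0 and 56.

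HNF4A, which the rule did not use, was scarce in these 250 windows; the ratio for FOXA1, which the rule fixed, was 0.00768. The sparse windows held 27 of 37053 HNF4A peaks, a mean of 0.108 per window against 14.1, or 0.00763 times the general mean (0.00525 to 0.0111). No HNF4A peak fell in 233 of the 250 (93.2%), against 14.2% of all windows. Gene starts were reduced less than HNF4A peaks: the sparse windows held 0.100 HNF4A peaks per protein-coding start and all windows 1.98. Of 269 protein-coding starts in the sparse windows, 8 had an HNF4A peak within 1 kb (2.97%, 1.51 to 5.76), against 40.2% of all such starts. The 8 were those of IRX1 and IRX2 (Iroquois homeodomain factors), RPRM (a cell cycle inhibitor), SEL1L (endoplasmic reticulum protein degradation), SMPD4 (a sphingomyelinase), CCDC74B, MZT2B and ZNF43. FOXA1, FOXA1dbd, FOXA1nhaa and FOXA1rraa peaks lay within 1 kb of 0 of the 269 starts, which by a limit of 3 counts allows a share of up to 1.12% (upper Wilson bound 1.41%), against 7.75%, 1.89%, 4.61% and 2.85% of all starts. The choice of windows by FOXA1 count enters the FOXA1 share at starts, and the shares of the variants where their peaks overlap FOXA1 peaks. The window with the most HNF4A peaks, chr2:130000001-131000000, held 4, with RAB6C, POTEF, CCDC74B, MZT2B, SMPD4 and TUBA3E. The ratio depended on which windows entered: it was 0.00141 for the 100 sparsest, 0.0147 with windows begun at 500 kb, 0.0334 and 0.177 with at least 80% and 90% unique words, and 0.321 for the 500 sparsest. Joining FOXA1 rows that share a peak name exchanged 3 windows and gave 0.0136, because 1 entering window, chr8:143000001-144000000, alone brought 21 HNF4A peaks. Before joining, that window held 3 FOXA1 peaks, the count at the boundary. Only the settling of ties by chromosome number left it out, so the 27 HNF4A peaks depend on that order.

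The FOXA1 variants were each scarce in the sparse windows, to different extents. FOXA1nhaa left 437 of 103508 peaks there, a mean of 1.75 per window against 39.5, or 0.0442 times the general mean (0.0403 to 0.0486). FOXA1dbd left 204 of 28348, a mean of 0.816 against 10.8, or 0.0754 times (0.0658 to 0.0864). FOXA1rraa left 69 of 69600, or 0.0104 times (0.00821 to 0.0131). Many entries of that list carry the name series of other lists, 22564 that of FOXA1 and 36427 that of FOXA1nhaa. Rows that repeat the coordinates of a FOXA1 peak are low here by the rule. Without them the ratio was 0.0111 (50 of 47035). The 24 peaks under its own series Nonspecific_FOX stood at 0.0387 times. The intervals of FOXA1nhaa, FOXA1dbd and HNF4A do not overlap for these 250 windows, but the order of the lists did not hold for other sets. In the 500 sparsest windows the ratios were 0.321 for HNF4A, 0.143 for FOXA1dbd and 0.128 for FOXA1nhaa, so HNF4A was then the least reduced. Among windows with at least 90% unique words they were 0.177, 0.152 and 0.135. There the intervals of HNF4A (0.159 to 0.196) and FOXA1dbd (0.138 to 0.168) overlapped. The lists also differ in length and unknown depth, which cannot be told apart from the constructs. No FOXA1nhaa peak fell in 70 sparse windows (28.0%) against 2.71% of all windows, no FOXA1dbd peak in 106 (42.4%) against 5.12%, and no FOXA1rraa peak in 198 (79.2%) against 7.94%. With the FOXA1rraa rows that repeat FOXA1 peaks left out, that last number was 211 (84.4%) against 9.05%. No peak of any of the 5 lists fell in 31 windows, which the rule places among the 250 because they hold no FOXA1 peak. FOXA1nhaa peaks outnumbered FOXA1 peaks in 158 sparse windows (63.2%), against 13.1% of all windows, and the low FOXA1 count that chose them enters this comparison. The window with the most FOXA1nhaa peaks, chr1:102000001-103000000 with the olfactomedin gene OLFM3, held 12 of them beside 3 FOXA1 peaks. The one with the most FOXA1dbd peaks, chr8:2000001-3000000, held 4 beside 1 FOXA1 peak.

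**Figure D3:**
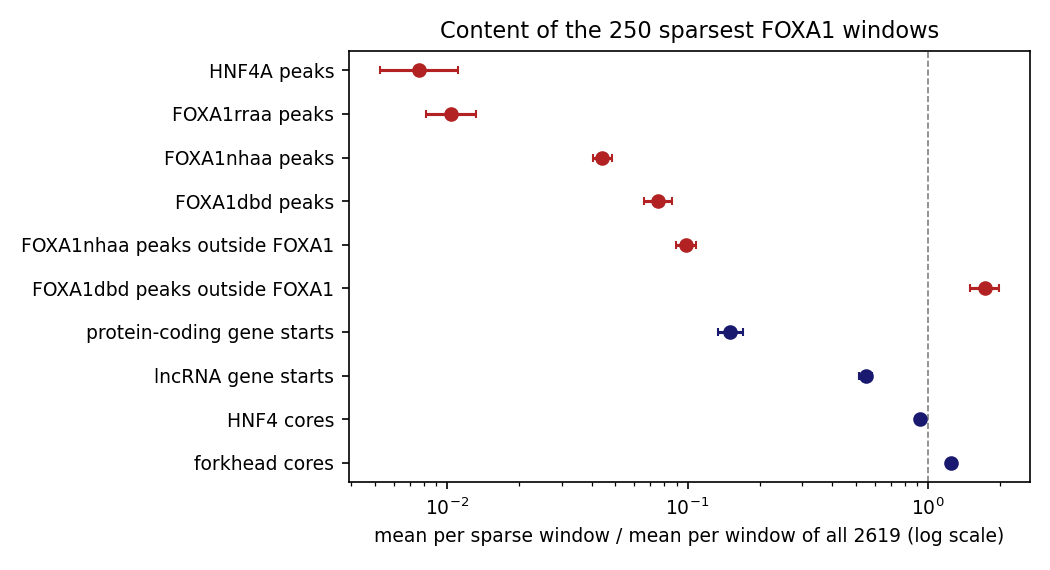
Mean number per sparse window divided by the mean per window of all 2619 (horizontal axis, logarithmic), for peaks in red and for gene starts and motif cores in dark blue; bars are 95% Wilson intervals that cover counting error only and the dashed line marks 1. HNF4A sits lowest at 0.00763, forkhead cores at 1.25 and FOXA1dbd peaks outside FOXA1 peaks highest at 1.72.

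Peaks of FOXA1dbd that shared no base with a FOXA1 peak were spread differently from all others. The list had 1047 of them in the 2619 windows and 172 of these (16.4%, 14.3 to 18.8) lay in the sparse windows, 1.72 times the general mean (1.50 to 1.97). At least 1 was present in 129 of the 250 windows (51.6%), against 32.3% of all windows. Windows with 0 FOXA1 peaks held 0.693 per window, windows with 10 to 29 held 0.323, the lowest value, and windows with 60 or more held 0.390. A low FOXA1 count leaves fewer peaks to overlap, so the rule takes part in this difference. The same holds for FOXA1nhaa, where the number outside FOXA1 peaks was 1.22 per window at 0 FOXA1 peaks and 24.5 at 60 or more, and where the ratio for the sparse windows was 0.0988.

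**Figure D4:**
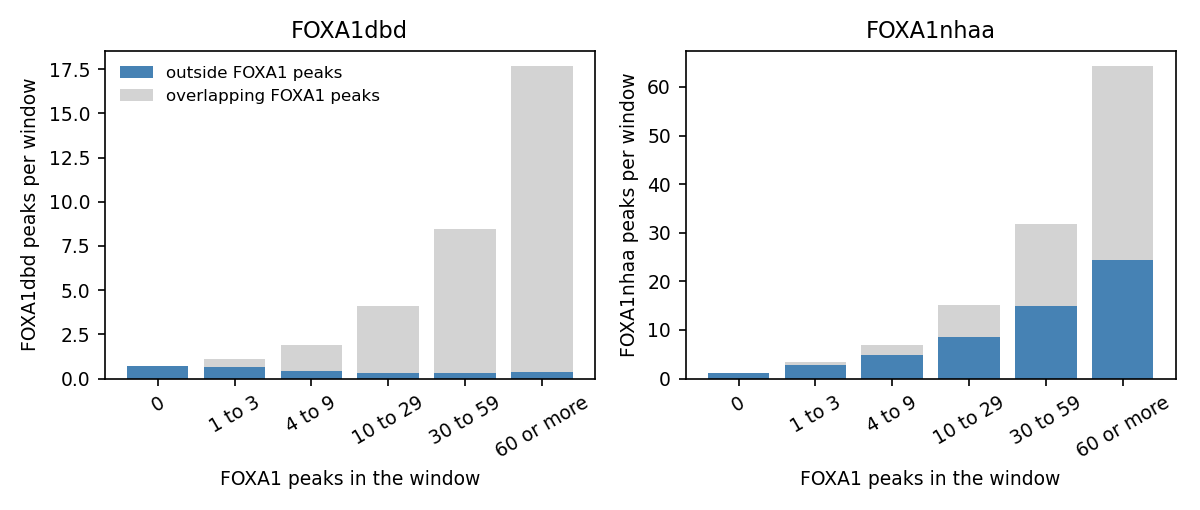
FOXA1dbd (left) and FOXA1nhaa (right) peaks per 1 Mb window (vertical axes), for windows grouped by their FOXA1 peak count (horizontal axes); blue is the part that shares no base with a FOXA1 peak and grey the part that does. For FOXA1dbd the blue part is 0.693 per window in the first group, 0.323 at 10 to 29 FOXA1 peaks and 0.390 in the last. For FOXA1nhaa it goes from 1.22 in the first group to 24.5 in the last.

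In sparse windows, FOXA1dbd peaks outside FOXA1 peaks also held a forkhead core more often than such peaks in the other windows. A core lay in the central 200 bases of 54 of the 172 in sparse windows (31.4%, 24.9 to 38.7). Among the 875 outside FOXA1 peaks in the other windows the share was 18.3% (15.9 to 21.0), and among the 27269 other-window peaks inside FOXA1 peaks it was 22.5%. Inside FOXA1 peaks of the sparse windows it was 6 of 32 (18.75%, 8.89 to 35.3). The rule shapes these classes, since 84.3% of FOXA1dbd peaks in sparse windows lay outside FOXA1 peaks, against 3.11% in the other windows. Over all FOXA1dbd peaks, inside and outside together, the gap was smaller. A core was held by 29.4% (23.6 to 36.0) in sparse windows and 22.3% (21.8 to 22.8) in the other windows. The array on chromosome 11 printed above is the highest-scoring of the 172. The median score was 61 in sparse windows and 62 in the other windows for peaks outside FOXA1, a difference of 1 on the authors' score. FOXA1nhaa peaks outside FOXA1 held a core in 11.6% in sparse windows and 11.2% elsewhere. The sequence itself also differed, since 9.06% of 200-base stretches in sparse windows and 7.12% in the other windows held a core, and its part in the difference was not tested.

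The FOXA1 peaks that did fall in the sparse windows were narrower and lower in score than most. Their median width was 204 bp against 302 bp in all windows and their median score 82 against 124; median scores were also lower for FOXA1nhaa (68 against 89), FOXA1rraa (72 against 106) and HNF4A (81 against 99), and equal for FOXA1dbd (61). A core lay in the central 200 bases of 20 of 111 (18.0%), and of 18.2% of all FOXA1 peaks. FOXA1dbd peaks overlapped 32 of the 111 (28.8%, 21.2 to 37.9), against 17.5% of all FOXA1 peaks, whereas FOXA1nhaa peaks overlapped 32 (28.8%) against 40.1%. HNF4A peaks overlapped 0 of the 111, which by a limit of 3 counts allows a share of up to 2.70% (upper Wilson bound 3.35%), against 1.70% of all FOXA1 peaks.

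The peak names were also examined. The names hold a running number, which some FOXA1 rows share. In the main name series of each list read, the numbers never stepped back along a chromosome and part of them was absent. Between the last listed peak before a run of sparse windows and the first listed peak after it, the numbers spanned were counted, whether listed or not. That absent numbers were calls in that stretch is read from the order of the numbers and was not tested. There were 146 to 151 such stretches, depending on the list. FOXA1rraa, whose names come from several series, was left out, and FOXA1dbd was read from its main series of 25760 peaks. For FOXA1, 575 numbers were spanned and 109 were listed, so 81.0% were absent, against 29.1% elsewhere. The low listed FOXA1 count chose the windows, so the FOXA1 values are given as a description only. For HNF4A, 53 were spanned and 27 listed, 49.1% absent against 3.92% elsewhere. For FOXA1nhaa, 1138 were spanned and 409 listed, 64.1% absent against 37.6%. For FOXA1dbd, 3828 were spanned and only 184 listed, 95.2% absent against 48.7%.

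FOXA1dbd numbers stood at 10.1 per Mb of known sequence around the sparse windows and 21.5 per Mb elsewhere, a ratio of 2.12. The ratio was 19.3 for FOXA1nhaa (3.50 against 67.6 per Mb), 55.4 for FOXA1 (1.61 against 89.4 per Mb) and 149 for HNF4A (0.118 against 17.7 per Mb). For FOXA1 the choice of windows enters the ratio. Around the sparse windows FOXA1dbd spanned more numbers than any of the other 3 constructs, although elsewhere it spanned fewer than FOXA1 and FOXA1nhaa. The stretches run past the windows to the flanking listed peaks, so they include much sequence outside the 250. They covered 448 Mb for HNF4A, 378 Mb for FOXA1dbd, 356 Mb for FOXA1 and 325 Mb for FOXA1nhaa. Each stretch ends at listed peaks of its own list, so the ratios of the 4 lists are not drawn from the same sequence. Why numbers are absent from the lists was not tested.

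**Figure D5:**
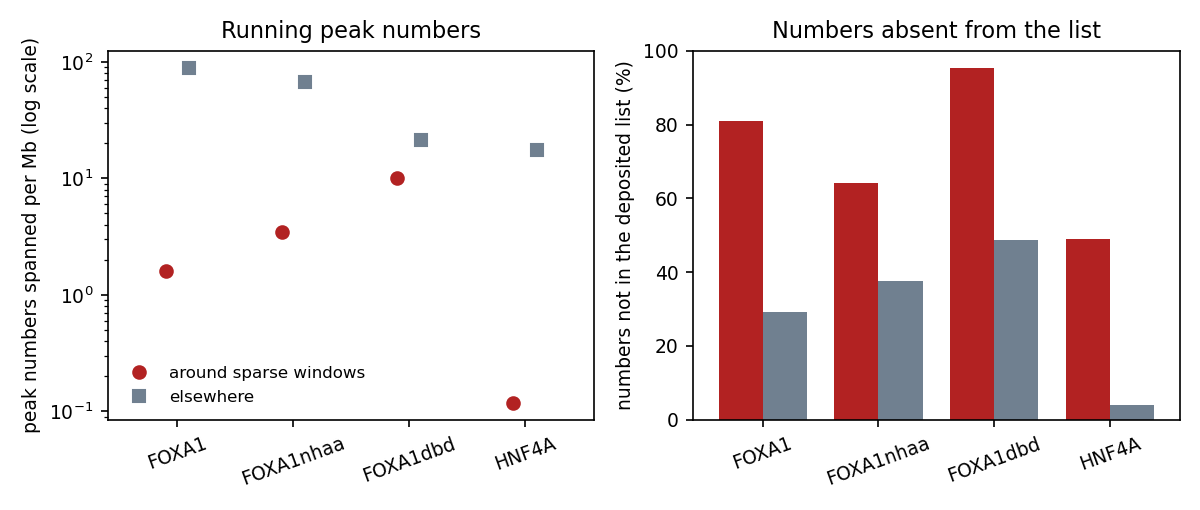
Left, running peak numbers spanned per Mb of known sequence (logarithmic vertical axis) around the sparse windows (red circles) and elsewhere on chromosomes 1 to 22 (grey squares) for 4 constructs; right, the percentage of those numbers that the deposited list does not hold, with red bars for the stretches around sparse windows and grey bars for elsewhere. The red and grey points are closest for FOXA1dbd, at 10.1 and 21.5 per Mb, and its red bar is the highest at 95.2%. The choice of windows by FOXA1 count enters the red values of FOXA1 and, through peaks that overlap FOXA1 peaks, those of FOXA1nhaa and FOXA1dbd.

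Sparse windows were unevenly spread over chromosomes and often adjacent. Chromosome 4 had 31 of 187 windows in the set (16.6%) and chromosome 13 had 15 of 93 (16.1%), while chromosome 20 had 0 of 58, chromosome 17 had 1 of 75, chromosome 19 had 1 of 55 and chromosome 15 had 3 of 80. Settling ties by chromosome number favoured low numbers, since the 9 windows that entered with 3 FOXA1 peaks all lay on chromosomes 1 to 4. The 250 windows fell into 154 runs, of which 96 were single windows and 1 reached 8 windows. That longest run, chr5:22000001-30000000, held the cadherin genes CDH12, CDH10 and CDH9 and PRDM9, whose product marks meiotic recombination hotspots. Its 8 windows together had 2 FOXA1 peaks, 6 FOXA1dbd peaks, 7 FOXA1nhaa peaks, 0 HNF4A peaks and 4429 forkhead cores, and the windows on either side held 15 and 6 FOXA1 peaks. Among 3 runs of 5 windows, chr8:111000001-116000000 with CSMD3 stood at 1 FOXA1, 6 FOXA1dbd, 7 FOXA1nhaa and 0 HNF4A peaks, and its flanking windows had 58 and 127 FOXA1 peaks. Another run of 5 windows, chr13:54000001-59000000, held the PRR20 gene cluster (PRR20A to PRR20E) and PCDH17, a protocadherin, with 2 FOXA1, 5 FOXA1dbd, 7 FOXA1nhaa and 0 HNF4A peaks. The remaining one, chr4:62000001-67000000, had 3 FOXA1, 6 FOXA1dbd, 9 FOXA1nhaa and 0 HNF4A peaks and lies outside the naming rule.

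FOXA1 counts rose over the first 2 windows outside an edge. Windows next to a sparse window had a median of 33.5 FOXA1 peaks (middle 50% from 13 to 65.25), those 2 windows away 64, and those 3 windows away 72. HNF4A medians over the same steps were 4, 11 and 11. Measured without window borders, 215 stretches of at least 1 Mb had no FOXA1 peak. Of these, 186 held no gap of 100 kb of unknown bases and the longest of them, chr5:21732637-27242183, measured 5.51 Mb and held 2 FOXA1dbd peaks, 7 FOXA1nhaa peaks and 0 HNF4A peaks.

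The 10 windows that come first by the rule all had 0 FOXA1 peaks and lay on chromosomes 1 and 2. On chromosome 1 they were chr1:4000001-5000000 with AJAP1 (an adherens junction protein gene), chr1:189000001-190000000, chr1:238000001-239000000 with the egg coat gene ZP4, and chr1:239000001-240000000 with the muscarinic receptor gene CHRM3. On chromosome 2 they included those that began at 4000001, 16000001 (with the transcription factor gene MYCN and CYRIA) and 35000001. The AJAP1 window had the fewest forkhead cores of the set, 235, with 48.2% GC, 2 FOXA1dbd peaks and 1 HNF4A peak, the only HNF4A peak among the 10. FOXA1nhaa peaks were present in 9 of the 10, with 4 in the window at 35000001 as the highest value. The order among the 176 windows at 0 follows chromosome number alone and ranks nothing.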

How the data were processed

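Peak lists were used as the authors deposited them. The deposited FOXA1 list gives a score per peak, and the other deposited lists give a score, a fold enrichment (a ratio) and −log10 p- and q-values as the authors' peak caller wrote them, of which the −log10 values were not reported here. Scores and folds were used only inside a single list. The submitters' processing notes name hg19, Bowtie2 2.3.4.1, Picard, GATK 4.2.6.0, bedtools 2.27.1, MACS2 2.2.7.1 and deepTools 3.5.0, with no role given. Whether peaks were called per library or on pooled libraries, and how the inputs were used, is not given in the sources used here. A down-sampled FOXA1 list was not used.

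Windows, motif matches and 32-base words (sampled every 500 bases, counted over the primary assembly) came from GRCh37, and genes from the GENCODE annotation lifted to it. Peaks overlapped when they shared at least 1 bp. Ratios are means per window, with Wilson intervals of the share of a list's peaks. The work used Python 3.11.15, NumPy 2.4.6, pandas 2.3.3 and Numba 0.67.0, and the ratio was tested on simulated data. Windows and genes were named by a fixed rule: the 10 lowest, the 3 longest runs (ties by lower FOXA1 count), the extremes of each list, 3 windows on each side of the boundary and the 5 longest genes; the highest-scoring FOXA1, FOXA1nhaa and HNF4A peaks were named with them. The FOXA1dbd peak, the genes with an HNF4A peak at their start and single members of gene families were named after their values were seen. The windows, lists and rules were chosen with earlier results of these data known. Some items that the rule names are not reported here.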

Additional observations from a re-analysis of the deposited data

How the results depend on the processing

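No paired analysis was possible because 1 deposited list stands for each construct, and for the same reason no library could be left out. Ratios to the general mean are given as reported and then under other settings; none crossed 1, and 13 values stayed within their intervals while 26 moved. HNF4A peaks (0.00763) stood at 0.00141 in the 100 sparsest windows, 0.321 in the 500 sparsest, 0.0147 with windows begun at 500 kb, 0.0136 with joined FOXA1 rows, 0.177 among windows with at least 90% unique words and 0.0334 with at least 80%. FOXA1nhaa peaks (0.0442) stood at 0.0329, 0.128 and 0.0393 for the first 3 of these settings, 0.0507 with the top 50% of FOXA1 peaks by score, 0.135 and 0.0519 at 90% and 80% unique words, and 0.0988 outside FOXA1 peaks. FOXA1dbd peaks (0.0754) stood at 0.0610 in the 100 sparsest, 0.143 in the 500 sparsest and 0.152 at 90% unique words. Forkhead cores (1.25) stood at 1.26 in the 100 sparsest, 1.10 in the 500 sparsest, 1.07 at 90%, 1.22 at 80%, and 1.17 for TGTTTAC alone. Protein-coding starts (0.151) stood at 0.0966 and 0.585 for the same sets, 0.183 from 500 kb, 0.460 at 90%, and 0.498 for genes of any type. The limit of 80% was chosen after seeing the data. The 100 sparsest windows are decided by chromosome order among the 176 windows at 0. At 90% unique words only 851 windows remained, so the 250 sparsest of them reached 14 FOXA1 peaks, and the 500 sparsest of all windows reached 15. Why the other values moved was not tested. Read depth is unknown, so how many weak sites went unlisted cannot be given.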

Other observations

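SOX2, a pioneer factor named in the series title, was noticed after the values were seen. It was the only protein-coding gene to start in chr3:181000001-182000000, a sparse window with 1 FOXA1, 1 FOXA1dbd, 1 FOXA1nhaa and 0 HNF4A peaks.

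The highest-scoring FOXA1nhaa peak of the sparse windows outside FOXA1 peaks, with a score of 429 and a width of 3979 bp, lay at chr9:68998800-69002778. Its window had 9.37% unique words and 3 HNF4A peaks. It held no forkhead core in its central 200 bases.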
